A study of Mus musculus with 8 samples.

Results

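The 2 Gpr137b-knockout clones of the mouse macrophage cell line RAW264, KO1 (Clone#7-3-4) and KO2 (Clone#7-4-5), were compared with each other. They were the second against the first replicate of the knockout groups and took up 4 of the 8 arrays of the series. Each clone had 1 array without IL-4 and 1 array after IL-4 for 48 h, and the clones were compared within each treatment. A probe set, the group of probes that reports 1 transcript, was kept where KO2 differed from KO1 by at least 2-fold in the same direction in both treatments and the brighter clone was above background on both arrays. Of 22206 probe sets, 72 met this rule, 65 with a gene symbol and 7 without one here.

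The clones were established from RAW264 cells with the CRISPR/Cas9 system, and each array holds the RNA of 1 clone, not of a pool. KO1 and KO2 carry the genotype Gpr137b -/-, while WT1 (Clone#1-1-4) and WT2 (Clone#1-2-5) are Gpr137b +/+. Cells given mouse IL-4 were kept without serum, with BSA added. The sources used here do not say whether untreated cells were too, so an effect of IL-4 cannot be told apart from one of medium. Nothing in the labels speaks of separate cultures of a clone under 1 treatment, so the p-values measure only the spread between these arrays. In the main fit that spread is how far the IL-4 effect differs between the 2 clones of a genotype, pooled over both genotypes. A gap between the WT clones that differs between the treatments thus also widens the error of the KO comparison. The 2 arrays of a clone are 1 for each treatment and not replicates.

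Clones of an edited line share the intended edit but each descends from a single cell, and heritable differences that the founder cell carried, or that arose during expansion, are passed to the whole clone. Macrophages are phagocytes that sense microbes and tissue damage, and IL-4 turns them towards an alternatively activated (M2) state through its receptor and Stat6. Gpr137b is a lysosomal membrane protein that has been linked to mTORC1 at the lysosome. Comparing the 2 knockout clones shows which genes vary between cells that carry the same labelled genotype.

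Signals are the log2 of the deposited intensities. Each array has 23 antigenomic control probe sets, which match no mouse sequence, and their 95th percentile was taken as its background. It lay between 6.64 and 6.78 on the 8 arrays, and between 42.8% and 43.8% of probe sets were brighter. The 5222 negative control probe sets, another kind of control, had medians between 6.63 and 6.73, about the same level. This background is therefore a lenient limit, and a signal just above it says little about expression. Of 26 measured macrophage markers, 25 were above background on all 4 KO arrays. Lyz2, the lysozyme gene, had a signal of 18.92 and 18.94 in KO1 and 18.89 and 18.93 in KO2 without and with IL-4. Csf1r, the receptor for the macrophage growth factor, had 16.33 and 16.05 in KO1 and 16.22 and 16.14 in KO2. Mertk was below background on all 4 arrays. None of the markers was 2-fold apart in both treatments. Defining genes of other cell types were mostly below background. None of 10 epithelial markers was above it on any KO array. Of 9 T and NK cell markers only Cd28 was, as were Acta2 of 9 fibroblast markers, Blnk of 10 B cell markers, Vwf of 8 endothelial markers, and S100a8 and S100a9 of 16 granulocyte and mast cell markers. S100a8 was 7.68 and 6.45 in KO1 and 10.40 and 7.22 in KO2 without and with IL-4, a log2 difference of 2.72 and 0.76.

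Gpr137b itself was at 10.24 in KO1 and 11.12 in KO2 without IL-4, and at 10.00 and 10.82 with IL-4. WT1 had 11.50 and 10.32 and WT2 11.67 and 11.93. The KO2 arrays were above both KO1 arrays, by a mean log2 difference of 0.86 ± 0.33 (SE, n = 2 arrays for each clone, adjusted p = 1 from limma), and one WT1 array lay between the knockout clones. The sources used here do not say where in the gene the edit lies, and a probe set outside it checks nothing about the labels. The probes may also share signal with the near-identical Gpr137b-ps, at 10.99 and 11.56 in KO1 and 11.92 and 11.80 in KO2.

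Between the knockout clones 47 probe sets were at least 2-fold higher in KO2 in both treatments, which is 0.212% of those measured, and 25 were at least 2-fold lower, which is 0.113%. The genes at the top of the first group were Tmem176b (38.2-fold) and Sla (36.6-fold), and the gene at the top of the second was Amy1 (12.2-fold). In 1 treatment alone, 103 were 2-fold higher and 51 lower without IL-4 only, and 59 higher and 47 lower with IL-4 only. By limma, which pools the spread of all 8 arrays, 11 of 22206 probe sets passed an adjusted p of 0.05 (0.0495%), 7 of them higher in KO2 (0.0315%) and 4 lower (0.018%). All 11 are among the 72, and the genes with a symbol are Tmem176b, Sla, Me1, Zfp992, Scn11a, Amy1, Tmsb10, Tfpi and Prss16. At an unadjusted p under 0.05 there were 822. When only the 4 KO arrays were fitted, 40 probe sets passed, the 11 among them, and 37 of the 40 are members of the 72. The fits and the 2-fold rule use the same differences, so these overlaps are largely built in and are no separate support. Without either array of KO cells without IL-4 the count was 1, and without either array with IL-4 it was 0, since 1 pair of arrays then carries the comparison and its spread is taken from the WT arrays.

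**Figure D1:**
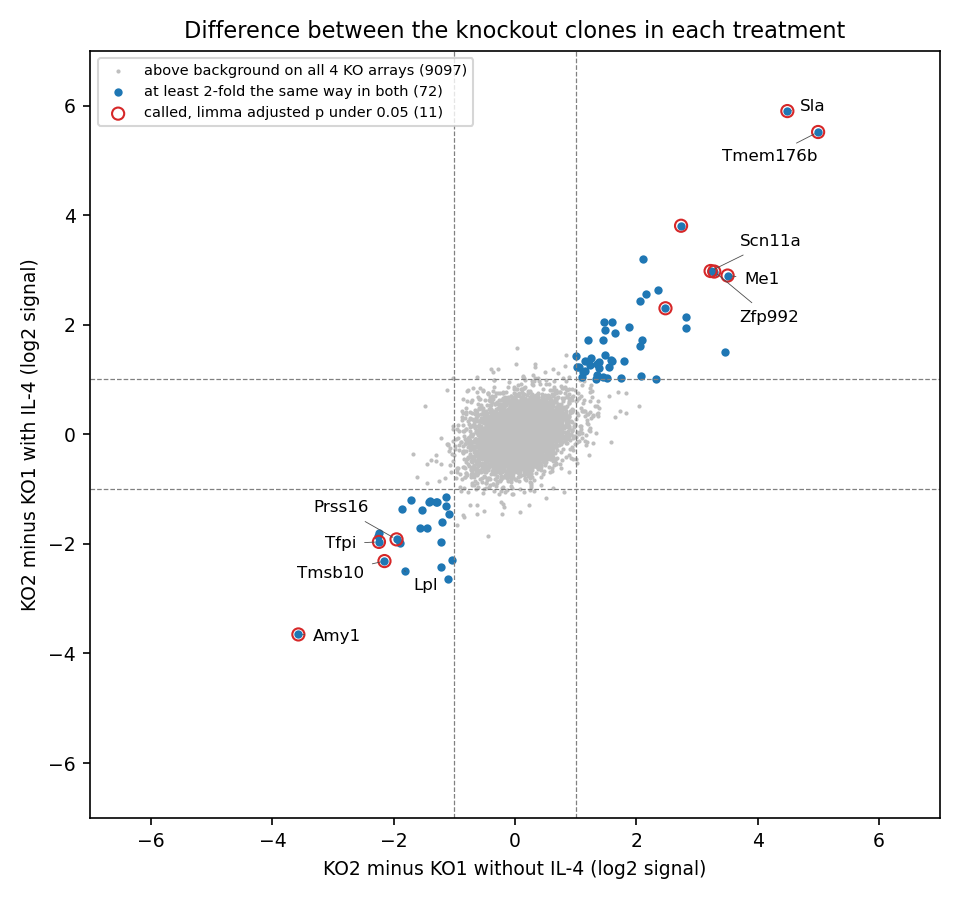
Each point is a probe set, with the KO2 minus KO1 difference in log2 signal without IL-4 on the horizontal axis and with IL-4 on the vertical axis. Grey points are the 9097 probe sets above background on all 4 KO arrays, blue points the 72 that were 2-fold apart the same way in both treatments and red rings the 11 called by limma; dashed lines mark a 2-fold difference. Tmem176b and Sla lie alone at the upper right and Amy1 alone at the lower left.

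Over the 9097 probe sets above background on all 4 KO arrays, the difference without IL-4 and the difference with IL-4 correlated across probe sets at 0.397, and 57.9% had the same sign. Those points share no array between the axes, but they share clones, probes and the normalization of the 8 arrays. The members were spread over the genome, with those higher in KO2 on 18 chromosomes and those lower on 14, at most 4 of the same direction on any of them and at most 6 of both.

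The widest mean difference over both treatments was in Tmem176b, which encodes a membrane protein of macrophages and dendritic cells. Its signal was 7.90 and 7.62 in KO1 and 12.90 and 13.14 in KO2 without and with IL-4. Both KO2 arrays stood far above both KO1 arrays, which were about 1 log2 unit above background. KO2 was 38.2-fold brighter, a log2 difference of 5.26 ± 0.40 (SE, n = 2 arrays for each clone, adjusted p = 0.0102 from limma). Tmem176a, its paralog and neighbour on the opposite strand, was below background in KO1 at 5.82 and 5.40 and above it in KO2 at 7.97 and 7.96. KO2 was therefore at least 2.30-fold brighter than the KO1 background (adjusted p = 0.0535 from limma, 0.00585 on the 4 KO arrays alone). The wild-type clones differed in both genes in the other order of their numbers. Tmem176b was at 10.86 and 10.02 in WT1 and at 6.70 and 7.67 in WT2, and Tmem176a at 7.45 and 6.96 in WT1 and 5.32 and 5.64 in WT2. A high signal of the pair was thus found in 1 clone of each genotype.

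The start sites of these genes, as annotated by RefSeq on GRCm38.p6, face away from each other across a short stretch on chromosome 6. It is shown because both genes differed in the same direction and this is the interval they share, chr6:48841375-48841482, written on the plus strand, that of Tmem176a. RefSeq lists 2 starts for Tmem176a and 3 for Tmem176b, and the stretch lies between the nearest pair.
Tmem176b to Tmem176a: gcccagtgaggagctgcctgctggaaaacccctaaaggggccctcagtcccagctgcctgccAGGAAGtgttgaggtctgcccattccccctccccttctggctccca
The capitals mark AGGAAG, a sequence contained in many binding sites of ETS factors such as PU.1, searched on both strands as AGGAAG or CTTCCT and found once here. The same letters occur in 35.1% of all 27025 promoter windows of 300 bases in the RefSeq table, so the match is a description only. The stretch has 108 bases, 63.9% of them G or C, and holds no CpG.

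Gpnmb, the gene of a glycoprotein of lysosomes and melanosomes that is abundant in lipid-laden macrophages, lies 6 measured genes from Tmem176b. It was at 14.23 and 15.13 in KO1 and at 16.32 and 16.85 in KO2, both above both, and 3.74-fold brighter in KO2 (adjusted p = 0.278 from limma, with a call on the 4 KO arrays alone). In the wild-type clones Gpnmb did not go with the Tmem176 pair. It was at 13.88 and 13.82 in WT1 and brighter in WT2, at 15.09 and 16.36, whereas the pair was brighter in WT1. The 4 genes between Tmem176a and Gpnmb were below background on all 4 KO arrays. So were 14 of the 20 nearest measured neighbours of Tmem176b, among them all 8 Gimap genes, GTPases of lymphocytes. Apart from Tmem176a and Gpnmb, the differences of the neighbours lay between −0.64 and 0.88.

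**Figure D2:**
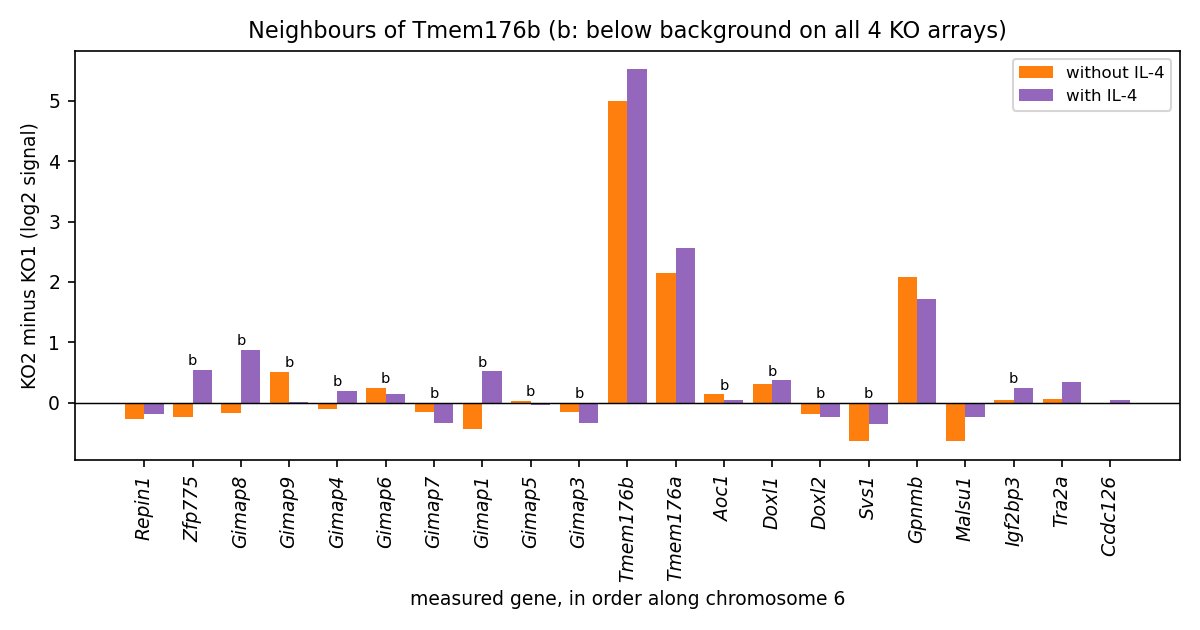
Bars give the KO2 minus KO1 difference in log2 signal of Tmem176b and its 20 nearest measured neighbours in their order along chromosome 6, without IL-4 in orange and with IL-4 in purple; b marks genes below background on all 4 KO arrays. Tmem176b (5.00 and 5.52), Tmem176a (2.15 and 2.56) and Gpnmb (2.09 and 1.72) stand out from the rest.

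Sla encodes the Src-like adaptor, which dampens signalling from immune receptors by promoting their breakdown. It was at 10.39 without and 8.71 with IL-4 in KO1 and at 14.87 and 14.61 in KO2. KO2 was 36.6-fold brighter, a log2 difference of 5.19 ± 0.35 (SE, n = 2 arrays for each clone, adjusted p = 0.00673 from limma). Both KO1 arrays lay close to WT1, at 10.09 and 8.23, and above WT2, at 7.96 and 6.65, so that KO2 had the highest signal of the 4 clones. The signal with IL-4 minus that without it was −1.68 in KO1, −1.86 in WT1 and −1.31 in WT2, and −0.27 in KO2. Sla lies inside an intron of the thyroglobulin gene Tg in the mouse genome, and Tg itself was below background on all 4 KO arrays. Cd28, a co-stimulatory receptor best known from T cells, was at 8.10 and 7.97 in KO1 and at 10.16 and 10.41 in KO2, a 4.75-fold difference (adjusted p = 0.353 from limma). The other measured T and NK cell markers were below background, and WT2 had Cd28 signals of 10.94 and 10.87, above those of KO2.

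Me1, the cytosolic malic enzyme that makes NADPH from malate, was at 8.17 and 8.35 in KO1 and 11.67 and 11.24 in KO2 without and with IL-4. Both WT clones were below KO2 on every array, at 8.08 and 6.85 in WT1 and 8.22 and 8.22 in WT2. KO2 was 9.19-fold brighter than KO1, a log2 difference of 3.20 ± 0.33 (SE, n = 2 arrays for each clone, adjusted p = 0.0337 from limma). The call was lost when the dimmest 40% of probe sets were left out (adjusted p = 0.059). Slc7a11, the cystine transporter that feeds glutathione synthesis, was at 12.15 and 11.49 in KO1 and 13.81 and 13.35 in KO2, which is 3.38-fold (adjusted p = 0.533 from limma). Srxn1, sulfiredoxin, which repairs oxidized peroxiredoxins, was at 8.36 and 8.10 in KO1 and 9.59 and 9.36 in KO2, which is 2.37-fold (adjusted p = 1 from limma). In both of these genes WT2 was brighter than KO2 in each treatment.

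Over the list of antioxidant genes, 20 of 26 measured were above background on all 4 KO arrays. None was called and 2 were 2-fold higher in KO2 in both treatments. Of all 9097 probe sets above background, 29.6% were higher in KO2 in both treatments and 28.2% lower. Of the 20 antioxidant genes, 10 were higher in both and 5 lower, with medians of 0.248 without and 0.153 with IL-4, beside 0.042 and −0.033 over all probe sets above background. Of 19 genes of the ATF4 response to amino acid shortage, 13 were higher in KO2 in both treatments and 1 was lower, with medians of 0.124 and 0.285. Mthfd2, a mitochondrial folate enzyme, had differences of 1.13 and 0.97 and Shmt2, which hands it one-carbon units, of 0.85 and 0.82. Neither passed the test. Of 30 interferon-stimulated genes above background, 14 were lower in both treatments and 6 higher, with medians of −0.09 and −0.20. Other lists were uneven too. Of 29 lysosome and mTORC1 genes above background, 15 were higher in both treatments and 5 lower, and of 28 glycolysis and hypoxia genes 13 and 4. Of 17 cholesterol and lipid synthesis genes, 2 were higher and 9 lower. No list was tested.

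Zfp992, a zinc finger gene, was below background in KO1 at 6.17 and 6.70 and above it in KO2 at 9.46 and 9.67, at least 6.97-fold (adjusted p = 0.0109 from limma). It sits in a run of related zinc finger genes whose probes may share signal, which was not tested. Zfp600, next to it, differed by 1.49 and 0.67 (adjusted p = 0.91) and Zfp979 by 0.86 and 0.16 (adjusted p = 1). Zfp992 was also bright in WT1, at 10.07 and 10.38. Scn11a, the voltage-gated sodium channel Nav1.9 of pain-sensing neurons, was near the floor of the array in KO1, at 4.32 and 3.79, and in both WT clones, between 3.30 and 3.77. In KO2 it reached 7.54 and 6.77, the latter hardly above background. The log2 difference was 3.10 ± 0.22 (SE, n = 2 arrays for each clone, adjusted p = 0.00673 from limma), which against the background of KO1 is at least 1.32-fold.

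Genes of secreted and surface proteins were among the rest of the 47, and none of those that follow passed the test on 8 arrays. Edn1, the peptide hormone endothelin-1, was at 8.44 and 7.44 in KO1 and 10.80 and 10.07 in KO2 (5.64-fold, adjusted p = 0.472). Its spread between WT clones was wider still, from 10.94 and 8.22 in WT1 to 14.27 and 14.08 in WT2. Mst1, macrophage-stimulating protein, the ligand of the receptor Ron, was at 6.85 and 6.43 in KO1 and at 8.96 and 9.63 in KO2 (6.32-fold, with KO1 above background on 1 of 2 arrays, adjusted p = 0.155). All 4 WT arrays lay between 5.80 and 6.83, so KO2 stood apart. Cxcl2, a chemokine for neutrophils, was at 14.02 and 13.07 in KO1 and 15.51 and 14.98 in KO2 (3.25-fold, adjusted p = 1). Vegfa, the endothelial growth factor, was 2.18-fold brighter in KO2 (adjusted p = 1) and Itgb3, the integrin beta subunit of osteoclasts and platelets, 2.20-fold (adjusted p = 1).

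Arg2, the mitochondrial arginase, was below background in KO1 at 6.04 and 6.67 and above it in KO2 at 7.92 and 8.64 (at least 2.86-fold, adjusted p = 1). Both WT clones were brighter than KO2 in this gene on every array, from 8.67 to 11.43. Ina, the neurofilament protein internexin, was at 7.46 and 8.45 in KO1 and 10.28 and 10.38 in KO2 (5.20-fold, adjusted p = 0.136), and below background in WT2. Klf3, a zinc finger repressor of the Krüppel-like family, was below background in KO1 at 4.83 and 4.64 and at 7.65 and 6.78 in KO2 (at least 1.37-fold, adjusted p = 0.095). Edn1, Mst1, Arg2, Ina, Klf3, Cd28 and Cxcl2 were each called when the 4 KO arrays were fitted alone.

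**Figure D3:**
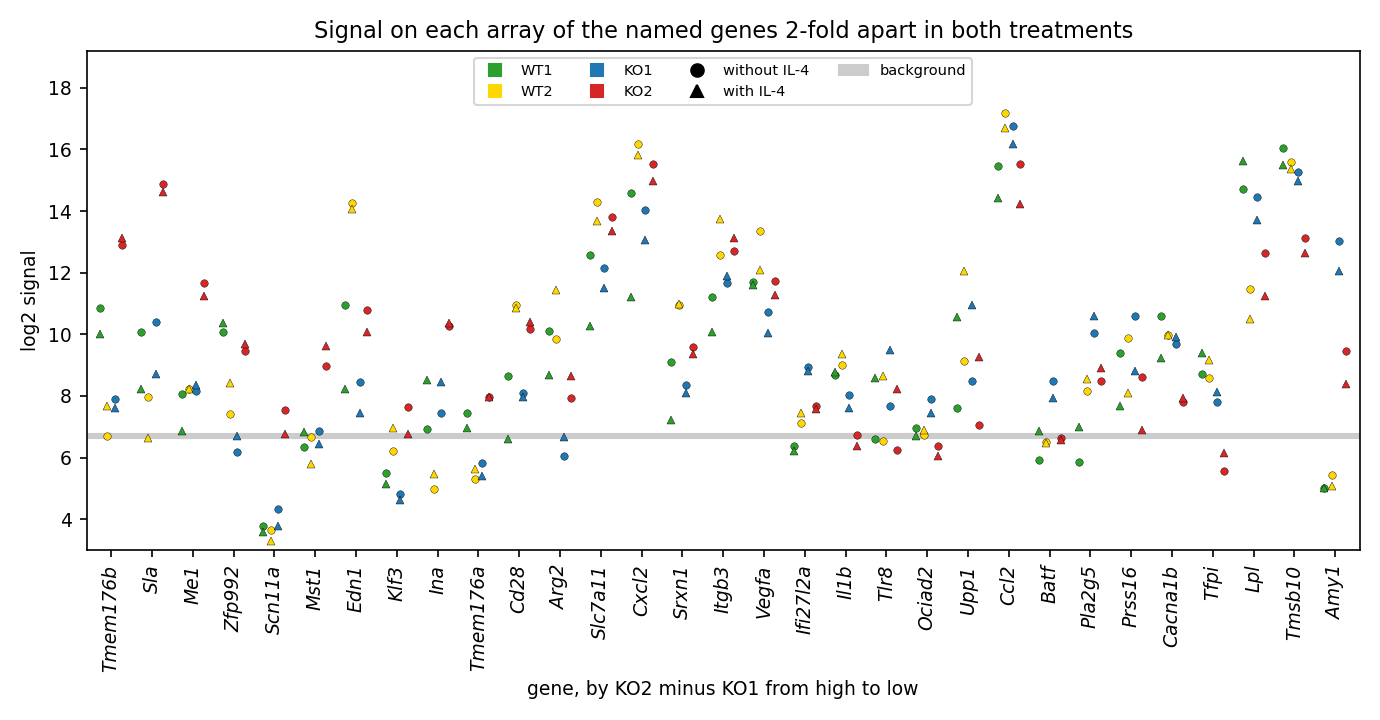
Each point is the log2 signal of 1 gene on 1 array, with clones in colour, circles without IL-4 and triangles with IL-4, and genes ordered by KO2 minus KO1 from high to low. The grey band is the range of background over the 8 arrays, 6.64 to 6.78. For Amy1 both KO clones lie above the band and both WT clones below it, whereas for Tmem176b a bright and a dim clone are found in each genotype.

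Among genes lower in KO2, Amy1, a secreted alpha-amylase best known from salivary gland and liver, had the widest difference. Its signal was 13.03 and 12.04 in KO1 and 9.46 and 8.38 in KO2 without and with IL-4. In the WT clones it was between 5.00 and 5.42, below background on all 4 arrays. KO1 was 12.2-fold brighter than KO2, a log2 difference of −3.61 ± 0.22 (SE, n = 2 arrays for each clone, adjusted p = 0.00673 from limma), and both knockout clones were above both WT clones. The neighbouring pancreatic amylase genes are near-identical copies whose probes may share signal. Of these, Amy2a4 was at 6.88 and 7.15 in KO1 and 6.64 and 6.47 in KO2, and Amy2b, Amy2a5 and Amy2a2 were below background on all 4 KO arrays. Rnpc3, on the other side of Amy1, differed by −0.09 and −0.02. 2610528A11Rik, which was picked after its values were seen, also had KO1 above KO2 and both above the WT clones. It was at 10.54 and 10.51 in KO1, at 9.15 and 9.29 in KO2 and between 6.50 and 7.05 in the WT clones.

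Tmsb10, thymosin beta 10, a small protein that binds actin monomers, was at 15.27 and 14.96 in KO1 and at 13.12 and 12.65 in KO2. The WT clones were between 15.36 and 16.03, so that KO2 alone was low. The log2 difference was −2.23 ± 0.22 (SE, n = 2 arrays for each clone, 4.70-fold, adjusted p = 0.029 from limma). Tfpi, the inhibitor of the tissue factor pathway of blood clotting, was at 7.82 and 8.12 in KO1, between 8.59 and 9.41 in the WT clones, and below background in KO2 at 5.57 and 6.15. KO1 was at least 2.42-fold brighter (adjusted p = 0.0337 from limma). Prss16, a serine protease of the thymus, was at 10.59 and 8.82 in KO1 and 8.63 and 6.90 in KO2, 3.83-fold apart (adjusted p = 0.0435 from limma). Its IL-4 effect was −1.77 in KO1 and −1.73 in KO2. The lower KO1 array, at 8.82 with IL-4, was therefore only just above the higher KO2 array, at 8.63 without it. Without an IL-4 term its adjusted p was 1, and without the dimmest 40% of probe sets it was 0.0529.

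Of the other named genes with a lower signal in KO2, none passed the test on 8 arrays. Lpl, lipoprotein lipase, was at 14.46 and 13.72 in KO1 and at 12.64 and 11.23 in KO2 (4.46-fold, adjusted p = 0.398). Pla2g5, a secreted phospholipase A2, was at 10.04 and 10.61 in KO1 and 8.47 and 8.90 in KO2 (3.11-fold, adjusted p = 0.234), and Upp1, uridine phosphorylase, was 2.98-fold apart (adjusted p = 0.135). Both clones had more Upp1 signal with IL-4, 8.50 and 10.95 in KO1 and 7.05 and 9.25 in KO2. Cacna1b, the pore of the N-type calcium channel, was at 9.68 and 9.91 in KO1 and 7.79 and 7.92 in KO2 (3.85-fold, adjusted p = 0.269), while the WT clones were between 9.22 and 10.61. Ociad2 was at 7.90 and 7.44 in KO1 and below background in KO2 (at least 1.97-fold, adjusted p = 0.236). Lpl, Pla2g5, Upp1, Cacna1b and Ociad2 were each called when the 4 KO arrays were fitted alone, as was Batf.

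Immune genes lay on both sides. Ccl2, the chemokine that draws monocytes, was at 16.75 and 16.19 in KO1 and 15.53 and 14.23 in KO2, 3.01-fold apart (adjusted p = 0.269), in the opposite direction to Cxcl2. Il1b, interleukin-1 beta, was at 8.04 and 7.62 in KO1 and 6.74 and 6.38 in KO2, with KO2 above background on 1 of 2 arrays (2.41-fold, adjusted p = 0.269). Tlr8, an endosomal sensor of RNA, was at 7.69 and 9.48 in KO1 and 6.26 and 8.24 in KO2, so each clone was brighter with IL-4 and KO1 was brighter than KO2 in each treatment (2.51-fold, with KO2 above background on 1 of 2 arrays, adjusted p = 0.257). Batf, a transcription factor of the AP-1 family, was above background in KO1 only, at 8.49 and 7.92, except for WT1 with IL-4 at 6.87 (at least 2.85-fold over KO2, adjusted p = 0.323). Ifi27l2a, an interferon-induced gene, was 2.39-fold apart (adjusted p = 0.323). Of 18 inflammatory genes above background on all 4 KO arrays, 11 were higher in KO2 in both treatments and 3 lower, with medians of 0.319 and 0.128, beside 29.6% higher, 28.2% lower and medians of 0.042 and −0.033 over all probe sets above background.

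The members just inside the 2-fold limit were E2f6 (1.00 and 1.42) and Gdpd1 (1.34 and 1.00) on the higher side. Wdcp (1.08 and 0.98) and Cyp2c55 (1.08 and 0.98) fell just outside it. On the lower side Marchf1 (−1.04 and −2.29) and Ctse (−1.09 and −1.46) were inside, and Glipr2 (−0.95 and −1.65) and Slc6a4 (−0.91 and −0.95) outside.

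Against the wild-type clones, KO2 stood apart from both by at least 2-fold in both treatments, with KO1 closer than that to both, in 5 of the 47 higher genes and 5 of the 25 lower probe sets. The rule also compares signals below background, and the share of all probe sets that meet it was not counted. The higher ones were Scn11a, Mst1, Ppox, an enzyme of haem synthesis, Zmat1 and Guca2a, the intestinal peptide guanylin. Guca2a was barely above background in KO2, at 6.94 and 6.75, and below it in the other clones, so KO2 was at least 1.06-fold above the KO1 background. The lower ones were Tmsb10, Cacna1b, Acap1, which activates the GTPase activity of Arf6, Nsd1, a histone H3 methyltransferase, and a probe set without a name here. KO1 stood apart in 3, Sulf2, an enzyme that trims heparan sulfate, Trip6, a LIM domain protein of adhesion sites, and Batf. In the remaining 59 neither clone met this rule. Sulf2 was at 8.18 and 7.65 in KO1 and from 9.23 to 10.46 in the other clones.

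Between WT2 and WT1, 471 probe sets were 2-fold apart in both treatments (2.12%) and 438 were called by limma (1.97%), with 277 called on the 4 WT arrays alone. Whether the spread between clones differs between the genotypes was not tested, since each genotype has 2 clones. Of the 72 probe sets, 23 also differed 2-fold between the WT clones in both treatments, which is 31.9% of the 72 and 4.9% of the 471. In 11 of the 23 the second clone was on the same side in both genotypes. The correlation across probe sets of the clone difference without and with IL-4 was 0.58 in WT cells over 8914 probe sets.

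By the rule the differences of the 72 pointed the same way in both treatments, which leaves their size to describe. The IL-4 effect in KO1 and that in KO2 were a median of 0.31 log2 units apart, and at least 1 unit apart in 9, among them Sla, Mst1, Abcd2, Hal, Ppox, Marchf1, Nsd1 and Stfa2. Abcd2, a peroxisomal transporter of very long-chain fatty acids, was at 8.98 and 11.43 in KO1 and 12.44 and 12.93 in KO2, so the difference was 3.46 without and 1.51 with IL-4. Stfa2, a cysteine protease inhibitor, was at 10.84 and 11.78 in KO1 and 9.72 and 9.13 in KO2, so the difference was wider with IL-4. With 1 array for each clone and treatment these differences have no test.

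Genes of the cell cycle had clone differences of opposite sign in the 2 treatments, without a call by limma. Of 28 above background on all 4 KO arrays, 16 (57.1%) were lower in KO2 without IL-4 and higher with it, against 15.4% of all 9097 probe sets, and the median difference was −0.127 without and 0.347 with IL-4. Mki67, a marker of proliferating cells, was at 11.57 and 9.40 in KO1 and at 10.54 and 10.43 in KO2. Its IL-4 effect was −2.17 in KO1 and −0.11 in KO2. In WT1 it was also lower with IL-4, at 11.88 without and 9.69 with it, and in WT2 it was at 8.24 and 7.52. Plk1, a mitotic kinase, was at 9.17 and 7.71 in KO1 and 8.31 and 8.10 in KO2, and the mitotic cyclin Ccnb2 at 9.58 and 8.05 in KO1 and 8.85 and 8.63 in KO2. Over the 28 genes the median IL-4 effect was −0.69 in KO1 and −0.21 in KO2. In KO1, 9 of them were at least 2-fold lower with IL-4, and in KO2 none, beside 1.2% and 1.0% of all probe sets above background. The part of serum withdrawal in this was not tested.

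**Figure D4:**
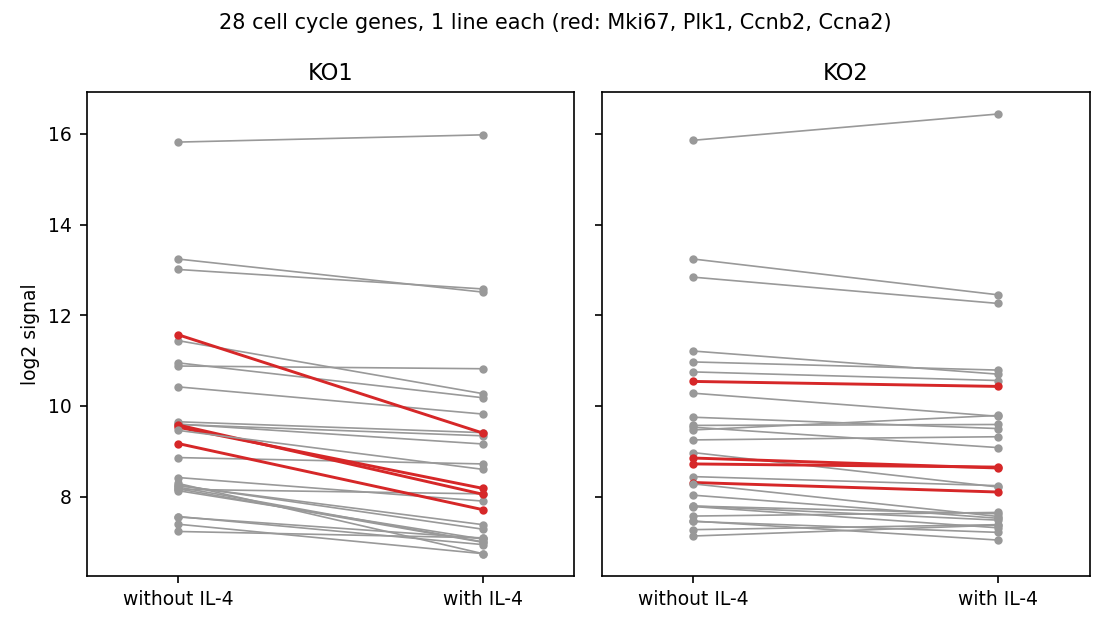
Lines join the log2 signal without and with IL-4 of each of the 28 cell cycle genes in KO1 (left) and KO2 (right), 1 array for each point; Mki67, Plk1, Ccnb2 and Ccna2 are in red. The red lines slope down in KO1 (−2.17 for Mki67) and are nearly level in KO2 (−0.11).

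By chromosome, the genes of chromosome 12 had a higher median signal in KO2. The median KO2 minus KO1 difference of its 295 genes above background was 0.198 without and 0.125 with IL-4. The medians of the other chromosomes were between 0.015 and 0.078 without and between −0.07 and −0.012 with IL-4. On chromosome 12, 54.6% of genes were higher in KO2 in both treatments and 11.5% lower, against 28.3% and 29.1% on the other chromosomes. Over the 286 of its genes above background on all 8 arrays, the median difference from WT1 was 0.11 and 0.121 in KO2 and −0.094 and 0.007 in KO1, where the other chromosomes had −0.06 and −0.037 in KO2 and −0.098 and 0.01 in KO1. From WT2 the medians were 0.311 and 0.153 in KO2 and 0.085 and −0.002 in KO1, and on the other chromosomes 0.127 and −0.032 in KO2 and 0.087 and 0.019 in KO1. KO2 was therefore the clone in which chromosome 12 stood above the other chromosomes. None of 160 segments of the genome, 8 for each of 20 chromosomes, had a median of at least 0.2 in the same direction in both treatments. The segments of chromosome 12 had medians from 0.065 to 0.337 without and from −0.045 to 0.18 with IL-4. Its last segment, at 0.083 and −0.045, did not share the shift in both treatments. Chromosome 12 was singled out after its values were seen, DNA copy number was not measured, and no test was run on it. The members on this chromosome were Arg2, Rab15 and E2f6, higher in KO2, and Ifi27l2a and Batf, lower in it.

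**Figure D5:**
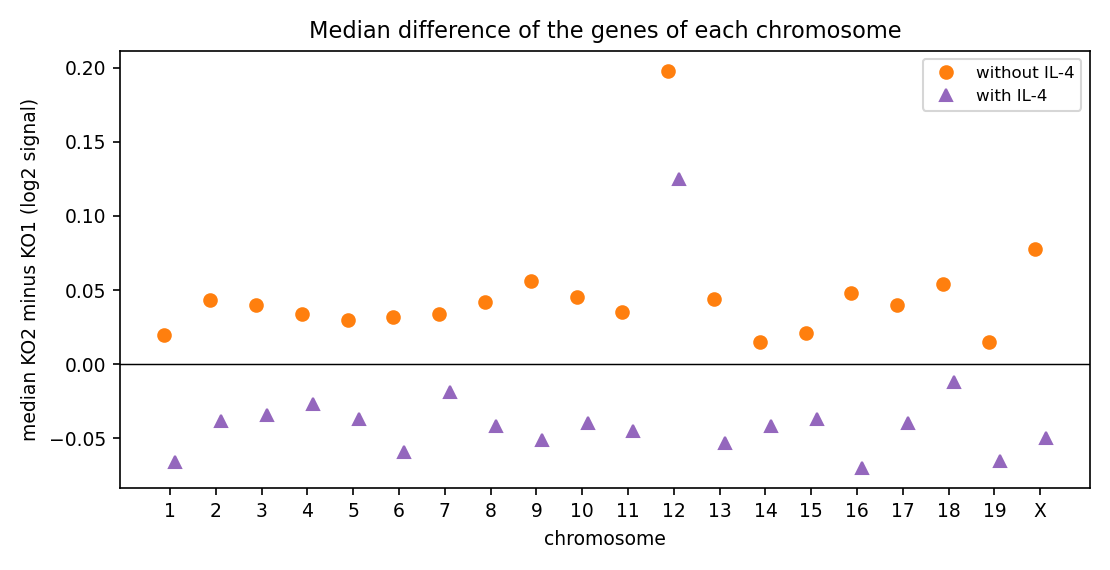
Points give the median KO2 minus KO1 difference in log2 signal of the genes of each chromosome above background on all 4 KO arrays, circles without IL-4 and triangles with IL-4. Chromosome 12 (0.198 and 0.125) lies above all others in both treatments.

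The promoter windows of the members, 250 bases before to 50 bases after a RefSeq start on GRCm38.p6, were looked up by symbol, and 48 of 65 were matched. The median number of CpG in the window was 11.5 for 34 genes higher in KO2 and 7.0 for 14 genes lower in it, against 22.0 for 6726 genes above background on all 4 KO arrays. A window with at most 5 CpG was found in 26.5% and 42.9% of the members and in 8.7% of the genes above background. The sets are not alike, since a member needed only its brighter clone above background and the other genes all 4 KO arrays. The dimmer clone was below background on both arrays in 10 of the 47 and 5 of the 25. These shares are a description and were not tested.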

How the data were processed

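The series holds 8 Clariom S mouse arrays, 1 for each of 4 RAW264 clones in each treatment. The authors normalized the raw files by SST-RMA in the Transcriptome Analysis Console 4.0 (the submitters' notes name RMA), and deposited linear intensities, of which the log2 was taken. RMA models all arrays together, and the size of differences of dim genes may be distorted, in a direction that was not tested. Of 28846 rows, 6640 control rows were left out. Of the 22206 probe sets, 19572 have 1 gene symbol in the platform annotation and 2634 are unnamed here. The genome build behind the array annotation is not named in the sources used. Gene order and promoters came from RefSeq, GRCm38.p6.

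All 8 arrays entered 1 limma fit (version 3.58.1, R 4.3.3) of KO2 minus KO1, with a mean for each of the 4 clones and an IL-4 effect for each genotype, which matches the clones by treatment. The p-values of all probe sets were adjusted together by Benjamini-Hochberg, and 0.05 was the threshold. Standard errors rest on 2 residual degrees of freedom and 5.57 prior ones. The number of arrays limits the precision. The fit was tested on simulated data with known differences.

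A gene below background on both arrays of its dimmer clone has only a bound: the mean of the brighter clone against the higher of background and signal of the dimmer. Named genes were Gpr137b and its relatives, in each direction up to 15 called and the 12 with the largest smaller-of-both difference among those 2-fold apart in both treatments, and called or 2-fold members of 25 gene lists; predicted and clone-type names were left out. Other genes named in the text illustrate a count or a pattern and were picked after their values were seen. Members and lists were chosen with earlier results of these data known. As alternatives, values were normalized by quantiles, the dimmest 40% of probe sets were dropped and eBayes was run with trend and robust; others were the 4 arrays of a genotype alone, one IL-4 effect or none, an unadjusted p with a 2-fold change, other fold limits, no background filter and leaving out each array.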

Additional observations from a re-analysis of the deposited data

Results flagged for a closer look

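Clone differences of at least 2-fold in opposite directions in the 2 treatments were found for 2 probe sets with the brighter clone above background. Mki67 was lower in KO2 without IL-4 (log2 difference −1.03) and higher with IL-4 (1.03). The other, a probe set without a gene name here, differed by −4.76 without and 4.23 with IL-4. It was at 9.27 and 2.87 in KO1 and at 4.51 and 7.10 in KO2. The dimmer clone was thus below background in each treatment, and the size of these differences rests on signals near the floor. With IL-4, KO2 was little above the KO1 background of 6.74. Between WT2 and WT1 that probe set also changed direction, at −3.55 without and 6.43 with IL-4. The dimmer WT clone was again below background, at 3.65 and 3.58. Mki67 differed by −3.65 and −2.17 between WT2 and WT1. No difference between treatments was tested, since each clone had 1 array for each treatment.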

How the results depend on the processing

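The 11 calls between KO2 and KO1 (7 higher, 4 lower) all held after quantile normalization, with one IL-4 effect for both genotypes (13 calls), with trend and robust eBayes (27 calls, 19 higher and 8 lower) and on the 4 KO arrays alone (40 calls, 28 higher and 12 lower). Of the 11, 8 were kept without the dimmest 40% of probe sets and 7 without an IL-4 term. An unadjusted p under 0.05 with a 2-fold change gave 129 (86 higher, 43 lower). Leaving out 1 array at a time gave 0 to 40 calls (0 to 28 higher, 0 to 12 lower). Without a WT array, the WT arrays add no residual and the calls are those of the KO arrays alone. Between the WT clones the 438 calls became 1238 with trend and robust, 277 on the 4 WT arrays alone, 769 with one IL-4 effect, 997 by unadjusted p with a 2-fold change, and 277 to 934 when an array was left out. The 47 higher and 25 lower probe sets became 142 and 86 at 1.5-fold and 18 and 8 at 3-fold, and 68 of the 72 remained after quantile normalization. Chromosome 12 had medians of 0.142 and 0.153 without and with IL-4 after quantile normalization, and 0.099 and 0.102 over all probe sets with 1 gene, the highest of the autosomes and X in each case. Of 489 refits of 35 named genes, 364 kept direction and side of the threshold, 39 lost a call, 84 gained one and 2 reversed, both Gpr137c (−0.20 without either KO array without IL-4, 0.30 without either with IL-4). Many of these refits repeat each other, so their counts are not counts of separate checks. Leaving out any WT array gives the fit of the 4 KO arrays alone. Leaving out either KO array of a treatment gives the same result. No paired analysis was possible because the replicate number names the clone, which is what was compared. The fit matches the clones by treatment instead, and without an IL-4 term it does not (9 calls). In simulated data with 8 arrays, 2 of 66 differences of 1 log2 unit were called, and 63 of 67 of 2 units. Of all 143 calls there, 11 were false. The simulation had no IL-4 effects and no clone differences other than those planted in KO2. Its rates therefore do not carry over to these arrays, where a mean difference of 2.66 in Mst1 was not called and 1 of −2.23 in Tmsb10 was.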
